A study of Mus musculus with 7 samples.

Results

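The genes described here are the transcription factors that bind the cyclic AMP response element (CRE) and the coactivators they recruit: Creb1, Crem, Atf1, Atf2, Creb3, Crtc1, Crtc2, Crtc3, Crebbp and Ep300. They were read from 7 Affymetrix mouse430_2 arrays of the hypothalamus of mice aged 3 months. Wild-type mice gave 4 arrays. Mice of the genotype Creb-PomcCre-/-, in which Creb was removed by a Cre recombinase driven by Pomc, gave 3 arrays. In the labels the samples are biological replicates, and whether each is 1 mouse or a pool is not stated there, nor is sex. The whole hypothalamus was assayed, while Cre acts in Pomc-expressing cells, so most of each RNA sample came from cells outside the intended deletion. In such bulk tissue, fewer cells of a type and less RNA per cell cannot be told apart.

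Every probe set (a group of short probes summarised to 1 value) that the platform annotation gives to a single one of these symbols was used. This gave 31 probe sets for 9 of the 10 genes, among 18193 genes and 45037 probe sets measured. Creb1 had 6 probe sets, Atf2 had 5, Crem, Creb3 and Crebbp had 4 each, Crtc1 had 3, Crtc2 and Crtc3 had 2 each, and Ep300 had 1. The 1 probe set for Atf1 is also assigned to a pseudogene, so Atf1 is not reported. Of the 31 probe sets, 22 had a mean at or above the median level of all probe sets (6.22 on the log2 scale). Values far below that level may hold little but background, and levels of different probe sets are not compared with each other.

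CREB1, CREM and ATF1 are closely related leucine-zipper factors. Protein kinase A phosphorylates them when cyclic AMP rises, and the phosphorylated form binds the acetyltransferases CBP (Crebbp) and p300 (Ep300), which open chromatin. The CRTC proteins are a second set of coactivators: they stay in the cytoplasm while phosphorylated by salt-inducible kinases, and enter the nucleus to bind CREB when dephosphorylated by calcineurin. When CREB1 is lost, CREM and ATF1 can occupy the same sites, which makes the paralogs the natural place to look for compensation. The comparison of the arrays asks how these genes differed between the genotypes.

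None of the 31 probe sets passed the threshold (limma over all 45037 probe sets, adjusted p from 0.233 to 0.954), where 3 probe sets, or 0.00666%, passed in all. At an unadjusted p under 0.05 there were 7 members, against a background of 10.6% of all probe sets. The arrays of the genotypes were fully separate for 7 members (22.6%), against 11% of all probe sets. These were 5 lower and 2 higher, against 5.02% and 6.02% of all probe sets. The 7 were all 4 probe sets of Crebbp, the single one of Ep300, 1 of 6 of Creb1 and 1 of 4 of Creb3. Outside Crebbp and Ep300, 13 probe sets were higher and 13 lower, and their median difference was -0.0022 on the log2 scale, against 0.0084 for all probe sets. The count of members without overlap was 12 without knockout array 1, where the background was also higher at 20.7%. The number of all probe sets past the adjusted threshold was 46 without wild-type array 1 and 12 without wild-type array 2. It was 16, 9 and 5 without knockout arrays 1, 2 and 3. In each of these cases 0 members passed.

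**Figure D1:**
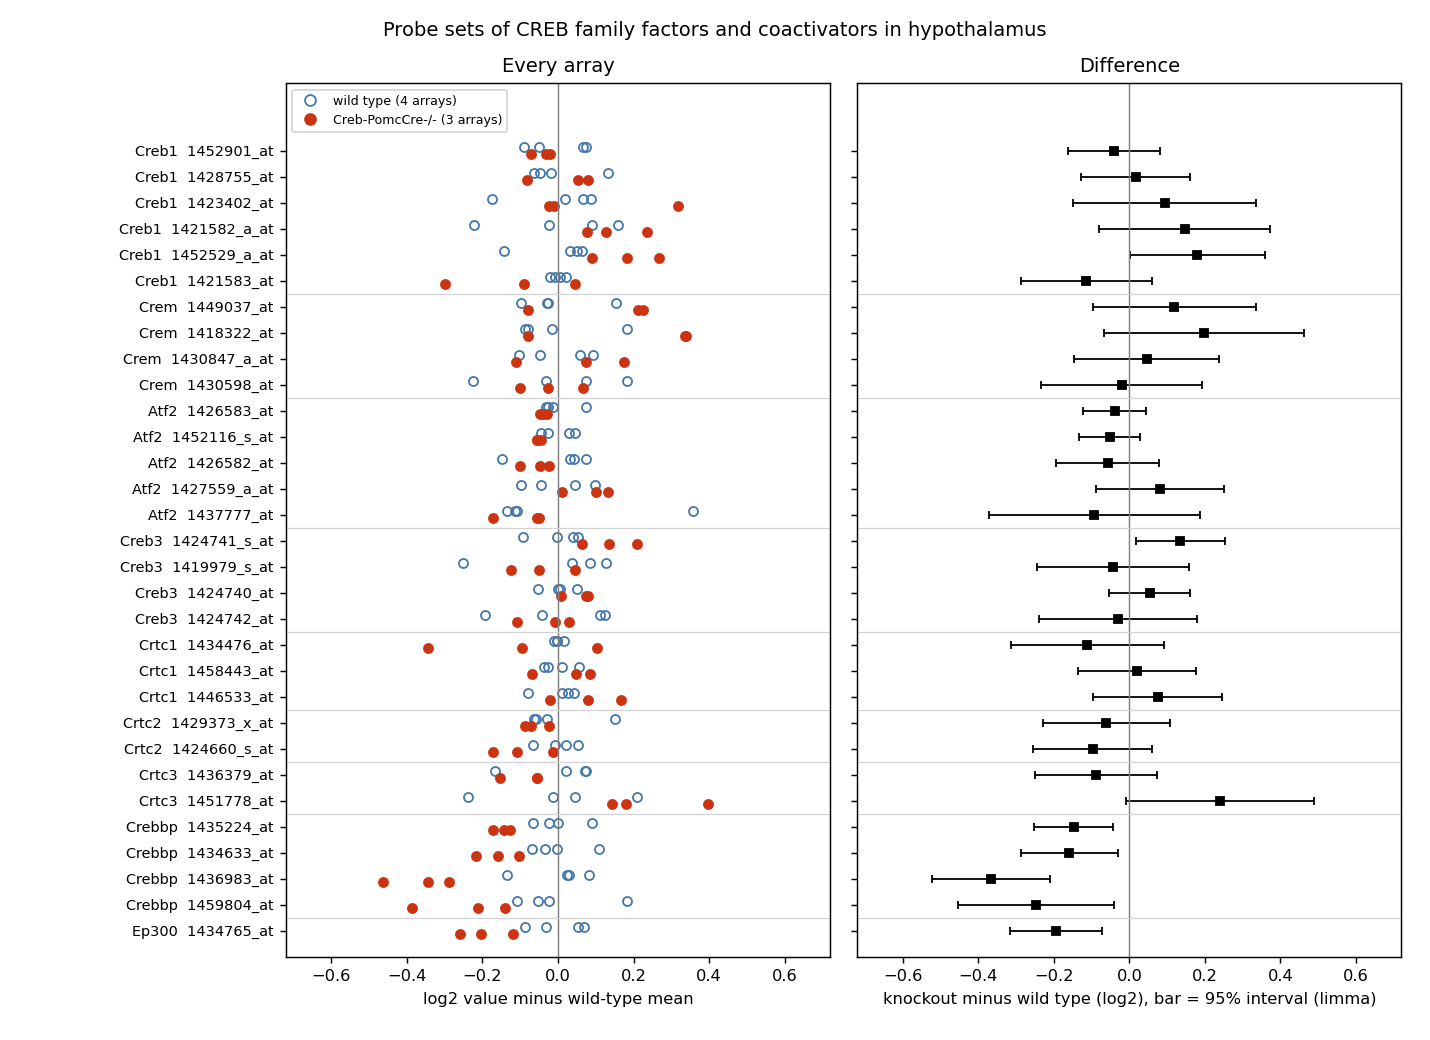
Left, log2 values of the 31 probe sets on each array, as the distance from the wild-type mean of that probe set (open circles, 4 wild-type arrays; filled circles, 3 Creb-PomcCre-/- arrays). Right, knockout minus wild-type difference with its 95% interval from limma. Circles of both genotypes mix in most lines, while in the 4 Crebbp lines and the Ep300 line all filled circles lie to the left of the open ones.

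Creb1, the deleted gene, did not differ at the level of the whole tissue by more than the spread between arrays. Its brightest probe set, 1452901_at, read 9.44, 9.57, 9.40 and 9.56 in wild type and 9.42, 9.46 and 9.47 in the knockout. The knockout values lay inside the wild-type range. The difference was -0.04 ± 0.054 (SE), a change of -2.8% with a 95% interval of -10.7% to 5.77% (limma, adjusted p = 0.816). The next brightest probe set, 1428755_at, differed by 0.02, with an interval of -8.52% to 11.8%. Both intervals exclude a change of the summed Creb1 signal by 25% in either direction. The position of these probes relative to the deleted exons was not analysed here, so the values do not check the genotype labels.

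The other 4 Creb1 probe sets had means below the median level. One of them, 1452529_a_at, is a dim set (23.0 percentile of all probe sets) for alternative transcripts of the gene. It read 4.34, 4.14, 4.31 and 4.33 in wild type and 4.46, 4.37 and 4.55 in the knockout, with every knockout array higher. Its difference, 0.18 ± 0.079 (SE), missed the threshold (limma, adjusted p = 0.467). The remaining 3 dim sets differed by 0.15, 0.09 and -0.11, and their groups overlapped.

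The genes whose pattern over the 7 arrays was most like that of Creb1 were Abhd6, a lipase that hydrolyses an endocannabinoid, Shprh, a ubiquitin ligase of DNA repair, and Sfxn3, a mitochondrial carrier. Their Pearson correlations with probe set 1452901_at were 0.982, 0.977 and 0.974. These are the highest of 9096 brighter genes over only 7 arrays, and are given as a description. In all 3, as in Creb1, wild-type arrays 2 and 4 were the highest.

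The RefSeq promoter windows (GRCm38.p6, 250 bases before to 50 after a gene start) of 8 of the 10 genes were available: those of Creb1, Atf1, Atf2, Creb3, Crtc1, Crtc3, Crebbp and Ep300. None held the full CRE, the palindrome TGACGTCA, which stood in 1.79% of all 32851 windows. The half-site TGACG, or CGTCA on the other strand, stood in 1 of the 8, that of Atf1, against 20.8% of all windows. A GC box, GGGCGG or CCGCCC on the other strand, stood in 7 of the 8, all but Crtc1, against 35.7%. The windows were rich in G and C (54.7% to 82%, median of all windows 52.7%) and in CpG (16 to 49 a window, median 7). Both highest values are those of Crebbp (chr16:4213355-4213654, minus strand). That window lies wholly inside the annotated gene, whose span ends at 4213957. The bases before the first annotated base of the gene are shown for Creb1, the deleted factor (chr1:64532554-64532793, plus strand), and for Ep300, one of the acetyltransferases that were lower in every knockout array (chr15:81585964-81586208, plus strand). Both run 5′ to 3′ with the GC box in capitals.
Creb1: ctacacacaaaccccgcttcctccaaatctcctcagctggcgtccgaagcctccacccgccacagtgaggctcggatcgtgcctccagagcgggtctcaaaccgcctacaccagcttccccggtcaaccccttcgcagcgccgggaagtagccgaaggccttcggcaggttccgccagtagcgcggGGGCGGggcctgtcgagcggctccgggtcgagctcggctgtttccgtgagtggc
Ep300: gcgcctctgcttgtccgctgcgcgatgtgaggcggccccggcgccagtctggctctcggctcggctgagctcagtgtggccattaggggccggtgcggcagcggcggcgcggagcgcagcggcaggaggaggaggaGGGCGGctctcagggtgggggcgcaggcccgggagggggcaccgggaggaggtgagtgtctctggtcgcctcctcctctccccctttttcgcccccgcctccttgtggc

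Crem encodes both activators and, from an internal promoter, the repressor ICER, which cyclic AMP induces. Probe set 1449037_at read 6.90, 6.83, 6.89 and 7.08 in wild type and 6.84, 7.15 and 7.13 in the knockout. Knockout arrays 2 and 3 lay above every wild-type array, and knockout array 1 lay within their range. The difference was 0.12 ± 0.096 (SE), a change of 8.62% with an interval of -6.46% to 26.1% (limma, adjusted p = 0.678).

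Probe set 1418322_at of Crem also had knockout arrays 2 and 3 above every wild-type array and knockout array 1 within their range. It read 6.74, 6.73, 6.80 and 7.0 in wild type and 6.74, 7.15 and 7.16 in the knockout. Its difference, 0.20 ± 0.12 (SE), missed the threshold (limma, adjusted p = 0.57), and without knockout array 1 it was 0.34 (adjusted p = 0.344). The interval ran from -4.49% to 37.7%. The 2 dim Crem sets differed by 0.05 and -0.02.

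Atf2, a factor of another leucine-zipper branch that pairs with JUN and is activated by stress kinases, was close to even between the genotypes. Its brightest set, 1426583_at, read 11.011, 11.119, 11.016 and 11.029 in wild type and 11.004, 11.015 and 10.996 in the knockout, and the groups overlapped. The difference of -0.04 ± 0.037 (SE) had an interval of -8.19% to 3.18% (limma, adjusted p = 0.732). The other 4 sets differed by -0.09 to 0.08.

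Creb3 is an endoplasmic reticulum membrane protein that is cut in the Golgi to release its factor domain. Its brightest set, 1424741_s_at, read 10.27, 10.12, 10.21 and 10.26 in wild type and 10.28, 10.43 and 10.35 in the knockout. All knockout arrays were higher, knockout array 1 by a narrow margin. The difference was 0.14 ± 0.052 (SE), a change of 9.82% with an interval of 1.29% to 19.1%, and missed the threshold (limma, adjusted p = 0.419). The remaining 3 sets differed by -0.04, 0.05 and -0.03 with overlapping groups. In Affymetrix naming the ending _s_at marks a set whose probes can match transcripts of more than 1 gene. The sets 1419979_s_at of Creb3, 1452116_s_at of Atf2 and 1424660_s_at of Crtc2 carry it too.

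Crtc1 is the CRTC of neurons. Its brightest set, 1434476_at, read 9.42, 9.41, 9.42 and 9.44 in wild type, a narrow range. The knockout arrays read 9.53, 9.33 and 9.08, on both sides of that range. The SD was 0.012 for wild type but 0.22 for the knockout. The difference was -0.11 ± 0.090 (SE), short of the threshold (limma, adjusted p = 0.679). It rested on knockout array 3, without which it was 0.0049. The dimmer sets differed by 0.02 and 0.07.

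Crtc2, the CRTC best known from liver gluconeogenesis, read 6.80, 6.59, 6.59 and 6.62 in wild type and 6.58, 6.56 and 6.63 in the knockout on 1429373_x_at. The groups overlapped, and wild-type array 1 stood above the other 6 arrays. The difference was -0.06 ± 0.074 (SE), and that of the second set was -0.10 ± 0.070 (SE) (limma, adjusted p = 0.798 and 0.644).

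The 2 probe sets of Crtc3, a member of the same family with known roles in fat tissue, went opposite ways. The brighter, 1436379_at, read 8.29, 8.11, 8.35 and 8.35 in wild type and 8.12, 8.22 and 8.22 in the knockout. The dimmer, 1451778_at, read 7.06, 6.89, 6.61 and 6.83 in wild type and 6.99, 7.24 and 7.03 in the knockout. The groups overlapped in both. The differences were -0.09 ± 0.071 (SE) and 0.24 ± 0.11 (SE) (limma, adjusted p = 0.683 and 0.483), and the direction for Crtc3 thus depended on the probe set.

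Crebbp and Ep300, the acetyltransferases, were lower in all knockout arrays on all 5 of their probe sets, and none of the 5 passed after adjustment. Probe set 1435224_at of Crebbp read 9.99, 10.06, 10.15 and 10.04 in wild type and 9.89, 9.92 and 9.93 in the knockout. Its difference was -0.15 ± 0.046 (SE), a change of -9.72% with an interval of -16% to -2.92% (limma, adjusted p = 0.356). Probe set 1436983_at had the largest difference of the 31. It read 8.56, 8.62, 8.40 and 8.56 in wild type and 8.19, 8.24 and 8.07 in the knockout. The highest knockout array was thus below the lowest wild-type array by more than the SD of either group (0.094 and 0.090). The difference was -0.37 ± 0.07 (SE), a change of -22.4% with an interval of -30.4% to -13.5% (limma, adjusted p = 0.233), and its p ranked 94 among all 45037 probe sets.

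The third Crebbp set, 1434633_at, read 9.20, 9.31, 9.17 and 9.14 in wild type and 9.10, 8.99 and 9.05 in the knockout, with a difference of -0.16 ± 0.057 (SE). The fourth, 1459804_at, is dim, and read 4.33, 4.10, 4.04 and 4.12 in wild type and 3.76, 3.93 and 4.01 in the knockout, with a difference of -0.25 ± 0.091 (SE). Adjusted p-values of these sets were 0.399 and 0.411 (limma). The groups of each were separate by a small gap. Among the 1093 genes with 4 probe sets, Crebbp and Ltbp3 were the 2 (0.183%) in which all 4 were lower without overlap, and in 0 genes were all 4 higher. That count was chosen after the Crebbp values were seen, and probe sets of a gene share the same RNA.

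Ep300 read 10.05, 10.10, 10.20 and 10.19 in wild type and 9.93, 9.87 and 10.01 in the knockout on 1434765_at. All knockout arrays lay below all wild-type arrays, the closest pair being knockout array 3 and wild-type array 1. The difference was -0.19 ± 0.054 (SE), a change of -12.6% with an interval of -19.6% to -4.9% (limma, adjusted p = 0.332). Over 1 probe set per gene, the adjusted p was 0.272 for Ep300 and 0.308 for Crebbp (limma over 18193 genes), where 6.05% of genes were lower without overlap and 6.09% higher. Among the 22 brighter sets of the 31, 4 were lower without overlap, against 7.3% of all sets of that brightness.

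**Figure D2:**
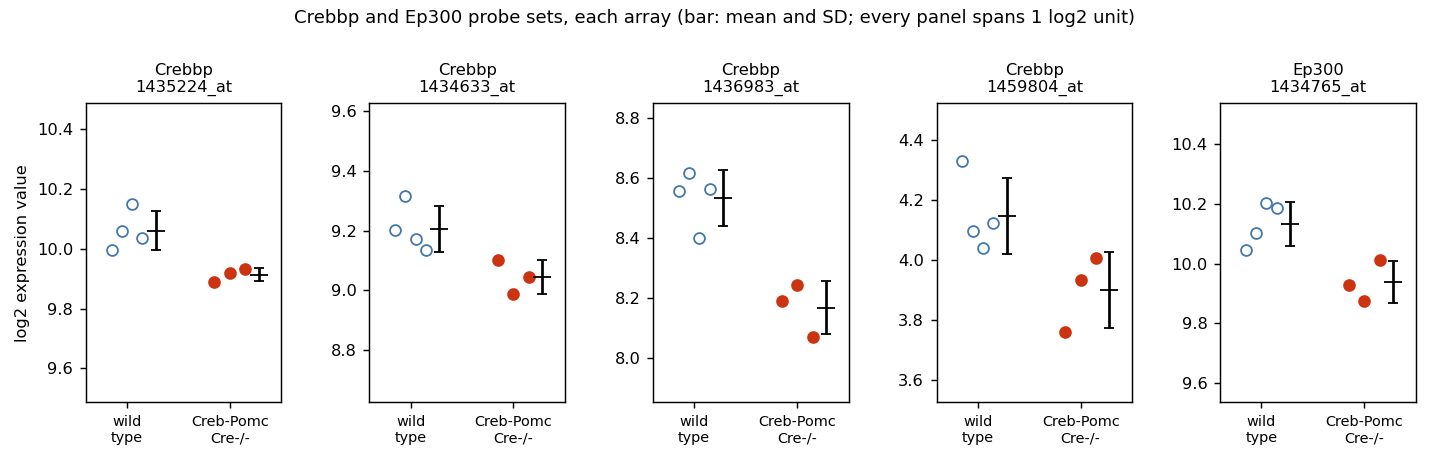
Log2 values of the 4 Crebbp probe sets and the Ep300 probe set on each array (open circles, 4 wild-type arrays; filled circles, 3 Creb-PomcCre-/- arrays), with the mean and SD of each group beside the points. Every panel spans the same width on the log2 scale, and the widest separation is that of 1436983_at, at -0.37.

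All 5 sets were lower in each of the 16 alternative fits that held them. With 1 array left out, the difference of 1436983_at ran from -0.41 to -0.32, that of Ep300 from -0.23 to -0.16, and that of 1435224_at from -0.17 to -0.12. The thalamus marker score was highest on wild-type array 2 and the meninges marker score on wild-type array 3, and with both left out these 3 differences were -0.39, -0.18 and -0.10. Every knockout array was below every wild-type array in all 5 sets. Leaving out or weighting arrays, or adding replicate number or sex to the fit, could thus change the size of a difference but not its direction. The part of the thalamus and meninges scores in these differences was not tested.

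Gene length moved with the result. Of the 18193 genes, 18145 had a genomic span in RefSeq (GRCm38.p6), and they were put in 10 bins from short to long. The median knockout minus wild-type difference went from 0.04 in the shortest bin to -0.05 in the longest, and the share of genes lower without overlap went from 2.37% to 11.8%. Crebbp lay in bin 10, Ep300, Creb1, Crem, Atf2 and Crtc3 in bin 9, and Creb3 in bin 2. Level moved with it too: in the bin of 10 by level that holds Crebbp and Ep300, 11.5% were lower without overlap, against 1.98% in the dimmest.

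Among the 508 genes that were both in the 2 longest bins and in the level bin of the acetyltransferases, 20.7% were lower without overlap, and the median difference was -0.06. Of these 508 genes, 18.1% had a difference at or below that of Crebbp (-0.15) and 8.66% at or below that of Ep300 (-0.19), both counts including the gene itself. These shares use 1 probe set per gene, for Crebbp the brightest, 1435224_at, and not 1436983_at, which differed by -0.37. The part of gene length in their difference was not tested.

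**Figure D3:**
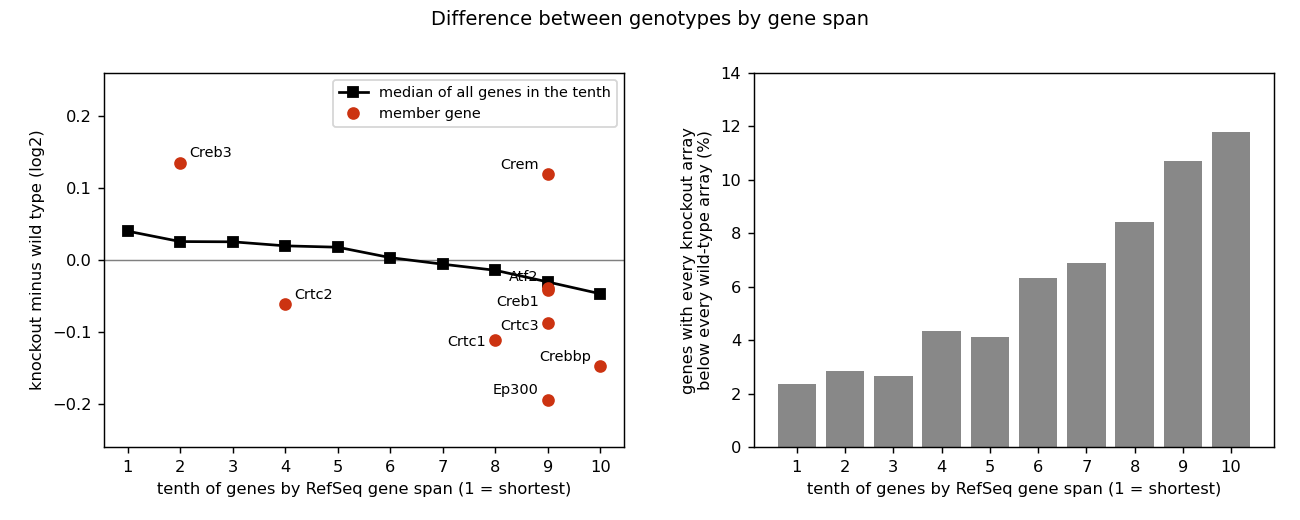
Left, knockout minus wild-type log2 difference against the bin of RefSeq gene span (1, shortest; 10, longest): squares, median of all genes in the bin; circles, the member genes, 1 probe set each. Right, the percentage of genes in each bin with every knockout array below every wild-type array, which goes from 2.37% in the shortest bin to 11.8% in the longest.

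Marker lists were also read on each array, as the median distance of the markers from their means. For 19 neuron markers the score ran from -0.01 to 0.07 in wild type and from -0.04 to -0.013 in the knockout, and 15 of 19 were lower. For 13 endothelial and mural markers it ran from 0.01 to 0.09 and from -0.14 to -0.03. The 13 meninges markers ran from -0.41 to 1.29 against -0.46 to -0.17, and the 13 thalamus markers from -0.23 to 0.88 against -0.29 to 0.09. Neuron scores, by a narrow margin, and endothelial scores were thus lower in all knockout arrays, as Crebbp and Ep300 were, and their part in the result was not tested. Scores of the astrocyte, oligodendrocyte, microglia, choroid plexus and ependyma, and pituitary lists overlapped between the genotypes. Markers higher in the knockout were 7 of 10 for astrocytes and 6 of 8 for pituitary. They were 4 of 11 for oligodendrocytes, 4 of 11 for microglia and 2 of 9 for choroid plexus and ependyma. Of 17 listed hypothalamus markers 16 were measured, and 12 of these were at or above the median level of all probe sets. In difference, 12 hypothalamus markers were higher and 4 lower (median 0.09), and 3 (18.8%) were higher without overlap, against 6.09% of all genes. The array scores of that list overlapped, from -0.22 to 0.08 in wild type and from -0.04 to 0.07 in the knockout. All 6 measured blood markers were higher (median 0.50), none of them at the median level of all probe sets. Their score was 0.91 on knockout array 2 and at most -0.09 on every other array. The RNA quality controls overlapped between the groups. The 3′ minus 5′ value of beta-actin was 1.34 to 1.44 in wild type and 1.36 to 1.47 in the knockout. That of Gapdh was 0.001 to 0.047 and 0.035 to 0.055, and that of pyruvate carboxylase 3.38 to 3.49 and 3.22 to 3.42. For pyruvate carboxylase only knockout array 1 overlapped, and knockout arrays 2 and 3, at 3.22 and 3.27, lay below every wild-type array.

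The lists of genes around these factors also had 0 members past the threshold (limma over all genes, where 2 of 18193 passed, 0.011%). Across all genes, the genotypes were fully separate for 12.1%, an unadjusted p under 0.05 was reached by 11.7%, and the median difference was 0.0036. That median moved with level: 0.03 in the dimmest of 10 level bins, -0.016 in bin 7 and -0.0056 in the brightest. All 17 CREB kinases and all 15 CRTC regulators below were at or above the median level, against 11 of 18 other CREB and ATF factors. The part of level in the list differences was not tested.

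Of 17 measured kinases and kinase subunits that act on CREB, 14 were lower and 3 higher, with a median of -0.06, and 5 did not overlap (29.4%), 4 lower and 1 higher. These were Camk1d, Camk2b, Prkaca and Prkar1b on the lower side and Akt1 on the higher. The calcium-dependent kinase Camk1d differed by -0.22 ± 0.074 (SE), the kinase of such kinases Camkk2 by -0.19 ± 0.072 (SE) with overlap, and Camk2b, a subunit abundant in neurons, by -0.10 ± 0.041 (SE). An unadjusted p under 0.05 was reached by 4 of the 17. Other sets of Camk1d and Camkk2 ranged from -0.25 to 0.02 and from -0.20 to 0.12. With the mean of all probe sets of a gene the list median was -0.018.

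Of 15 kinases and phosphatases that act on CRTC proteins or on CREB, 11 were lower and 4 higher, with a median of -0.05. In this list, 3 did not overlap (20%), all of them lower. These were the salt-inducible kinases Sik3 at -0.28 ± 0.039 (SE) and Sik2 at -0.07 ± 0.040 (SE), and the related kinase Mark2 at -0.08 ± 0.040 (SE). The other sets of Sik3 ranged from -0.0082 to 0.07. Those of Mark2 ranged from 0.02 to 0.06, and those of Sik2 from -0.31 to 0.01. Leaving out wild-type array 2 put the list median at -0.0075, and leaving out knockout array 2 put it at -0.00078.

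Of 15 other acetyltransferases and partners of CBP and p300, 9 were lower and 6 higher, with a median of -0.03, and 3 did not overlap (20%). The nuclear receptor coactivators Ncoa2 and Ncoa1, which bind CBP and p300, differed by -0.15 ± 0.044 (SE) and -0.09 ± 0.037 (SE), both without overlap. Cited1, a transactivator that binds the same acetyltransferases, differed by 0.33 ± 0.12 (SE), also without overlap. Other sets of Ncoa2 ranged from -0.12 to 0.16, and those of Ncoa1 from -0.12 to 0.11. Leaving out knockout array 2 put the list median at -0.0037.

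The 18 other CREB and ATF factors were on the other side, with 13 higher and 5 lower and a median of 0.04. In this list 3 did not overlap (16.7%, against 12.1% of all genes), all of them higher: Batf3, Batf and Creb3l4. The AP-1 family repressors Batf3 and Batf differed by 0.23 ± 0.082 (SE) and 0.15 ± 0.066 (SE), and Creb3l3, a liver factor, by 0.21 ± 0.084 (SE) with overlap. The values of Batf3, Batf and Creb3l3 lay between 5.04 and 6.54 on every array, and 11 of the 18 genes were at or above the median level of all probe sets. Creb3l4 was far below that level, with a mean of 3.41. Leaving out wild-type array 1 or knockout array 3 put the list median at 0.07.

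Among 44 CREB target genes, the difference was above 0 in 26 and below 0 in 18 (median 0.03), and 2 (4.55%) did not overlap. These were Syn1, a synaptic vesicle protein gene, at -0.12 ± 0.036 (SE) and Dbh, which makes noradrenaline, at 0.20 ± 0.074 (SE). The 2 other sets of Dbh differed by 0.04 and 0.12. The peptide gene Ucn differed by 0.23 ± 0.089 (SE) with overlap. The sign of that median was not stable: it was -0.04 when wild-type array 2 was left out and -0.0004 when knockout array 1 was.

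**Figure D4:**
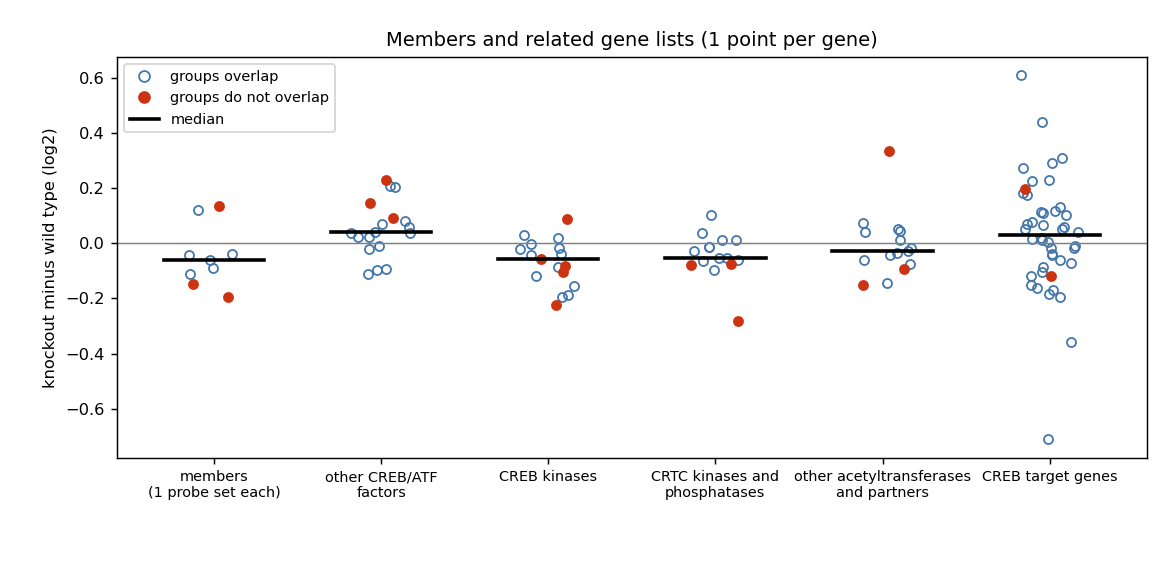
Knockout minus wild-type log2 difference of each gene (1 point per gene, 1 probe set each) for the 9 member genes and the 5 related lists, with filled points where the groups do not overlap and a bar at the median. The kinase lists sit mostly below 0 and the other CREB and ATF factors mostly above, with medians of -0.06, -0.05 and 0.04. The lists also differ in signal level, whose part was not tested.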

How the data were processed

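Expression was measured in 7 hypothalamus samples, 1 array each. The table the authors deposited holds log2 expression values per probe set. Per the submitters' processing notes, the tools were R 2.10.0, affy and RMA. Their settings are not given in the labels. RMA, as commonly run, corrects background, makes array distributions equal and summarises probes by median polish, so that differences in overall signal are removed and no detection call is kept. Small differences remained: the upper quartile of the deposited values was 8.338 to 8.356 in wild type and 8.323 to 8.326 in the knockout. With the distributions made equal again (quantile normalization), Crebbp 1435224_at differed by -0.12 and Ep300 by -0.17, against -0.15 and -0.19 as deposited. The part of the upper quartile in the differences was not tested. The table held 45101 probe sets, and 64 controls were left out. Symbols came from the platform annotation: 34945 probe sets had 1 symbol, 932 several (no gene was named from these) and 9160 none. Differences are knockout minus wild type, fitted with limma 3.58.1 in R 4.3.3 (lmFit, eBayes with an intensity trend, two-sided) over all probe sets, with p-values adjusted by Benjamini-Hochberg and called under 0.05. Intervals are 95% intervals of that fit, and SDs are over arrays. A second fit took the brightest probe set of each gene. Precision is limited by having 7 arrays, and the standard error of a difference had a median of 0.079 over probe sets. The fit was tested on simulated data.

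The members and lists were chosen with earlier results of these data known. Named genes were all members, full values being given for the brightest set of each and for sets without overlap or with an unadjusted p under 0.05, the 3 genes of smallest p in each related list, and the 3 most like Creb1. The other Crtc3 set, Prkaca, Prkar1b, Akt1 and Creb3l4 were added after their values were seen. Deviations of same-numbered arrays of the genotypes correlated at 0.26, 0.11 and 0.16 over probe sets, and those of differently numbered arrays at -0.24 to 0.09. The labels number the replicates but state no pairing. The main fit is therefore unpaired, and a fit with the number as a block was an alternative. Sex, read from Xist and Y-linked transcripts (wild type 2 females and 2 males, knockout 1 and 2), follows the number. Motifs were counted in RefSeq promoter windows. Figures were drawn with matplotlib 3.10.9.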

Additional observations from a re-analysis of the deposited data

Results flagged for a closer look

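In 4 of the 31 probe sets a single wild-type array stood far from the other 3, where chance gives about 1 in 20 groups. The gap to the nearest array, as a share of the wild-type range, was 0.946 for Atf2 1437777_at, where wild-type array 2 read 5.11 against 4.62 to 4.64. It was 0.846 for Crtc2 1429373_x_at, with wild-type array 1 at 6.80 against 6.59 to 6.62. It was 0.842 for Creb1 1452529_a_at, with wild-type array 2 at 4.14 against 4.31 to 4.34, and 0.832 for Atf2 1426583_at, with wild-type array 2 at 11.12 against 11.01 to 11.03. None of the Crebbp or Ep300 sets was among them.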

How the results depend on the processing

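The 31 probe set differences were recomputed in 16 other settings, which gave 487 values. None passed the threshold (limma, lowest adjusted p = 0.178), 465 kept their direction, and 22 values of 9 probe sets turned it, at sizes of at most 0.063. The 79 values of Crebbp and Ep300 were all lower, with adjusted p-values from 0.178 to 0.855 (limma). In the settings that left arrays out, weighted them, or added the replicate number or sex, that direction was fixed by the lack of overlap. Dropping the dim sets or the intensity trend leaves every difference of the 31 sets that remain as it was. Only the settings that normalized the values again could have turned the direction of Crebbp and Ep300.

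With the replicate number as a block (arrays numbered 1 to 3), 2 probe sets and 2 genes passed, 1436983_at of Crebbp differed by -0.36, and Crem 1430598_at and Creb3 1424742_at turned to 0.0038 and 0.012. Members at an unadjusted p under 0.05 then numbered 6 (background 9.89%), against 7 in the main fit (background 10.6%). Creb3 1424741_s_at (0.15) and Crebbp 1459804_at (-0.25) left that count and Crem 1418322_at (0.26) entered it. The block fit also leaves out wild-type array 4, and without that array and with no block the count was 6 as well (background 8.31%). The block changed no call at the adjusted threshold among the members. With sex as a covariate, 5 probe sets passed and Creb1 1428755_at was at -0.0021. With array weights, 7 genes passed. With the mean of all probe sets of a gene, 1 gene passed, and Creb1 and Crtc3 turned to 0.047 and 0.076. Without wild-type arrays 2 and 3, members at an unadjusted p under 0.05 numbered 3 (background 5.82%) and members without overlap 12 (background 23.1%). There Crem 1430847_a_at turned to -0.029, Crem 1430598_at to 0.056, Atf2 1437777_at to 0.031, Creb3 1419979_s_at to 0.063 and Creb3 1424742_at to 0.0053. The cause of these moves was not tested.

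With 1 array left out, probe sets past the threshold numbered 3 to 46, genes 2 to 21 and members without overlap 7 to 12. The share of all probe sets without overlap was higher than in the main fit each time an array was left out. A higher member count alone is therefore not a stronger member result in these fits. Differences ran from -0.015 to 0.066 for Creb1 1428755_at, -0.018 to 0.15 for Creb1 1423402_at, -0.019 to 0.13 for Crem 1430847_a_at, -0.096 to 0.040 for Crem 1430598_at, -0.14 to 0.026 for Atf2 1437777_at, -0.094 to 0.012 for Creb3 1424742_at, -0.22 to 0.0049 for Crtc1 1434476_at and -0.011 to 0.066 for Crtc1 1458443_at.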

Other observations

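In both brighter Crem probe sets, the knockout array that stayed low was the one that Xist marks as female. On 1418322_at the male knockout arrays read 7.15 and 7.16 against 6.73 and 6.80 in male wild type, a difference of 0.39. The single female knockout array read 6.74 against 6.74 and 7.0 in female wild type, a difference of -0.13. On 1449037_at the differences were 0.28 in males and -0.14 in the female. Crem was not alone in this: Creb3 1424741_s_at differed by 0.22 in males and 0.016 in the female, and Crtc1 1434476_at by -0.21 and 0.097. Ep300 was alike in both, at -0.21 and -0.19. A genotype by sex term, added after the Crem values were seen, had a size of 0.52 ± 0.17 (SE) for 1418322_at and 0.42 ± 0.15 (SE) for 1449037_at. The term passed for 0 of 45037 probe sets (limma, lowest adjusted p = 0.436), at an unadjusted p of 0.0199 and 0.0275 for 1418322_at and 1449037_at, and a single array carries the female side.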
